A study of Mus musculus with 2 samples.

Results

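A set of 10 genes of the brain extracellular matrix was described in long-read RNA sequencing of mouse left cerebral cortex, in which 1 read can span a transcript from end to end. They were chosen by name and by no cutoff on a measured value, though with earlier results of these data known. The set holds the lecticans Bcan, Ncan, Vcan and Acan, the link proteins Hapln1 and Hapln4, Tnr, Ptprz1, Sparc and Sparcl1. These are 10 of 18366 annotated mouse genes with a read, and all 10 had at least 1 read. The mice were male, 14 days old and of the strain B6CASTF1/J, the first-generation cross of C57BL/6J with the wild-derived CAST/EiJ. Both libraries belong to this 1 group, untreated as far as the labels say, and the input was 2 µg of total RNA a library. The labels number them as biological replicates 1 and 2. They give both a single donor identifier and the same description, which mentions several males. Whether each is 1 animal or a pool is thus not settled. A difference between the libraries can thus be a technical one, and each test below sets it against counting error alone.

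The matrix around neurons is built on hyaluronan, a long sugar chain. Lecticans are chondroitin sulfate proteoglycans whose amino-terminal domain binds hyaluronan, and link proteins hold that bond in place. Tenascin-R, the product of Tnr, joins lecticans through their carboxy-terminal lectin domain, and condensed nets of this kind wrap parvalbumin interneurons as the cortex matures. Ptprz1 encodes a receptor phosphatase that carries the same sugar chains and, as a secreted form called phosphacan, is itself part of the matrix. Sparc and Sparcl1 (hevin) are calcium- and collagen-binding proteins secreted by glia and vascular cells, known for their effects on synapse formation.

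Replicate 1 held 775048 mouse reads and replicate 2 held 924222, so 3 reads, the limit that a count of 0 allows, correspond to 3.87 and 3.25 CPM (reads per 1000000 mouse reads). Models longer than 5000 bases held 5.30% and 5.09% of mouse reads, and those longer than 10000 bases held 0.181% and 0.159%. All 8 astrocyte markers examined were detected, and the summed level of that list was 2907 CPM in replicate 1 and 3390 CPM in replicate 2. Markers of striatum, a region next to the cortex, were not absent. Their sum was 928 CPM in replicate 1 and 223 CPM in replicate 2, and all 6 that could be tested were lower in replicate 2, 5 of them at an adjusted p under 0.05 by Fisher's exact test, beside 1.01% of all genes. The myelin list summed to 3215 and 2104 CPM, and the choroid plexus list to 38.7 and 258 CPM. The part of these differences in the values below was not tested.

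A few structures carry most of what the long reads show of these genes, and their sequences are given first. They come from the GENCODE M21 transcripts on GRCm38 (mm10), written 5′ to 3′ on the strand of the gene. In Bcan, exon 8 is either spliced to exon 9 or read on into the following intron, which changes the end of the protein. Both continuations share the last 30 bases of exon 8, in lower case, and differ in the capitals.
Bcan secreted: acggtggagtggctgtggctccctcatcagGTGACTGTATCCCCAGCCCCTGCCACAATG
Bcan anchored: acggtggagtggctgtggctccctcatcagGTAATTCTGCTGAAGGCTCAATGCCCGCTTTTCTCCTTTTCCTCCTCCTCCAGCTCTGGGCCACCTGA
The first pair of exons lies at chr3:87990753-87993084 on the minus strand, where the capitals are the start of exon 9. In the second, at chr3:87992987-87993084, the capitals are the 68 bases read from the intron up to and including the first stop codon in the frame of Bcan-201, the reference transcript. The reading frame then closes after 645 codons, against a coding sequence of 883 codons in Bcan-201, and exons 9 to 14 are left out.

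In Ptprz1, the large exon 12 (chr6:22999200-23002746, 3547 bases) has an internal donor after its first 1000 bases, a donor at its end, and a form that reads on past its end. The 3 endings are shown with the last 30 bases before the choice in lower case.
Ptprz1 short: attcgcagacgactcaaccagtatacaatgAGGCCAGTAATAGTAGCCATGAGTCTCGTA
Ptprz1 long: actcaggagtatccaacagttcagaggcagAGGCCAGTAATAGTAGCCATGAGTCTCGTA
Ptprz1 secreted: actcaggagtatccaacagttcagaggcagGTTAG
The capitals are the start of exon 13 in the short and the long form, and in the secreted form the bases up to the stop of the annotated secreted transcript. The short form lacks 2547 bases of exon 12, the part that encodes most of the sugar-bearing region.

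In Sparc, exon 3 begins at either of 2 acceptors that lie 3 bases apart (chr11:55407249-55409957 spans the joined sequence), and the capitals are the bases present in Sparc-201 and absent from Sparc-202.
Sparc exon 2 to exon 3: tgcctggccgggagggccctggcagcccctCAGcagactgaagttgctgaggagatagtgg
In Vcan, the join of exon 7 to exon 9 leaves out exon 8, with the start of exon 9 in capitals (chr13:89685163-89702947).
Vcan exon 7 to exon 9: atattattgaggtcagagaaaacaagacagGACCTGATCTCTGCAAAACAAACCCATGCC

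The levels ran from below what 3 reads can show, for Vcan and Acan, to 1665 CPM, the mean for Sparcl1. Both libraries gave the other genes the same order, except that Hapln1 and Hapln4 changed places. Each long read was counted as 1 molecule and was not divided by transcript length. The reference transcripts differ in length, and what length did to the levels was not tested, so levels are compared between genes as read counts only. In bulk tissue, fewer cells of a type and less RNA per cell cannot be told apart.

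**Figure D1:**
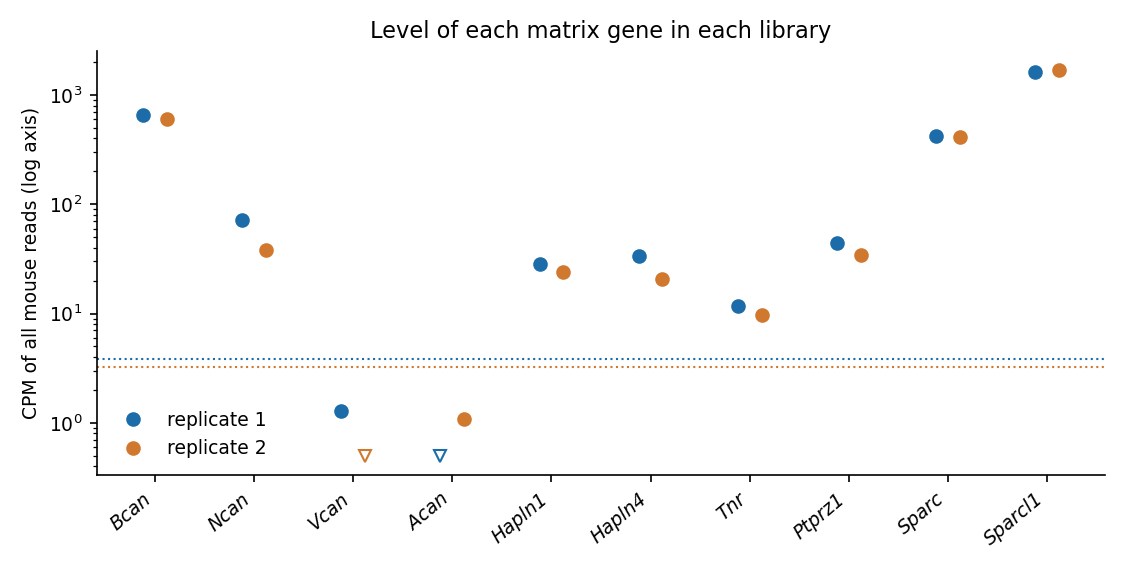
Level of each gene in each library, as CPM of all mouse reads on a log axis; dotted lines mark 3 reads in each library, and open triangles at the bottom mark a library with no read. Sparcl1, Bcan and Sparc, at means of 1665, 630 and 415 CPM, stand apart from the rest, whereas Vcan and Acan each have 1 read in 1 library.

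Among the lecticans, Bcan (brevican; chr3:87987531-88000230, minus strand) had 506 reads in replicate 1 and 561 in replicate 2. That is 653 and 607 CPM, or 630 ± 32.4 CPM (mean ± SD, n = 2). Bcan made up 89.9% of the reads of the 4 lecticans in replicate 1 (95% Wilson interval 87.1% to 92.1%) and 94.0% in replicate 2 (91.8% to 95.6%). Ncan (neurocan; chr8:70093085-70120873, minus strand) had 56 and 35 reads, 72.3 and 37.9 CPM, with a mean of 55.1 ± 24.3 CPM. Vcan (versican; chr13:89655312-89742509, minus strand) had 1 read in replicate 1 and none in replicate 2, and Acan (aggrecan; chr7:79053483-79115099, plus strand) none and 1. Both lie under the limit that a count of 0 allows, so a level for either was not detectable at this depth.

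Of the link proteins, Hapln1 (chr13:89539796-89611652, plus strand) had 22 reads in each library, 28.4 and 23.8 CPM. Hapln4 (chr8:70083457-70090862, plus strand) had 26 and 19 reads, 33.5 and 20.6 CPM. The means of 26.1 ± 3.24 and 27.1 ± 9.18 CPM differed by less than either SD. Each lectican gene has a link protein gene as its neighbour, with no protein-coding gene between them. Ncan and Hapln4 lie 2222 bases apart, Bcan and Hapln2 21519 bases, Vcan and Hapln1 43659 bases and Acan and Hapln3 2 bases. Some pairs were not matched in level: Hapln2 had 3 reads in replicate 1 and 1 in replicate 2, beside 506 and 561 of Bcan. Hapln1 had 22 in each beside the single read of Vcan. The counts of Hapln4, 26 and 19, were closer to the 56 and 35 of Ncan. Hapln3 had 3 reads in each library, too few for a comparison with the single read of Acan.

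Tnr (chr1:159523769-159931729, plus strand) had 9 reads in each library, 11.6 and 9.74 CPM. Ptprz1 (chr6:22875502-23052916, plus strand) had 34 and 32 reads, 43.9 and 34.6 CPM. Sparc (chr11:55394500-55423183, minus strand) had 324 and 381 reads, 418 and 412 CPM, the smallest SD relative to the mean among the 8 tested (415 ± 4.10 CPM). Sparcl1 (chr5:104079111-104113733, minus strand) was the highest, with 1270 and 1563 reads, 1639 and 1691 CPM, and ranked 27 by mean CPM among protein-coding genes with a read. Bcan ranked 164 and Sparc 297. Among the 8 tested genes, neighbours in the order of means were compared by the values of the libraries. These overlapped for Ncan with Ptprz1 and for Hapln4 with Hapln1, so these pairs were not separated. The values of the other neighbours did not overlap, but Ptprz1 (34.6 CPM in replicate 2) and Hapln4 (33.5 CPM in replicate 1) nearly met. With 2 libraries, this is no test of a difference.

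The difference between the libraries was tested gene by gene with a two-sided Fisher's exact test of the gene's reads against all other mouse reads. Over all genes, 236 of 11203 passed at an adjusted p of 0.05 (Benjamini-Hochberg), which is 2.11%, with 123 higher (1.1%) and 113 lower (1.01%) in replicate 2. Of the 10 matrix genes, 8 had the 10 reads the test asks for and 0 passed, also with the TMM library sizes of edgeR or the size factors of DESeq2. At an unadjusted p under 0.05 there was 1, Ncan, against 1254 over all tested genes. Ncan was lower in replicate 2 by a log2 ratio of -0.92 (95% counting interval -1.53 to -0.32, Fisher's exact p = 0.0030, adjusted p = 0.0986). With Known models only, the ratio of Ncan was -0.47 (12 and 10 reads, adjusted p = 0.953 by Fisher's exact test). Spliced reads only gave -1.01 (adjusted p = 0.247 by the same test). Hapln4, the neighbour of Ncan on the opposite strand, had a log2 ratio of -0.70 (-1.54 to 0.15). Bcan stood at -0.11 (-0.28 to 0.07), Sparc at -0.02 (-0.23 to 0.19) and Sparcl1 at 0.05 (-0.06 to 0.15). Among the 8, 7 were below 0, with a median of -0.25 against -0.01 over all tested genes. That count depended on the processing: it was 7 with TMM library sizes, 6 with DESeq2 size factors, and 3 of 6 tested with Known models only. With the same read count in both libraries, as for Hapln1 and Tnr, the ratio is below 0 because replicate 2 is deeper.

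**Figure D2:**
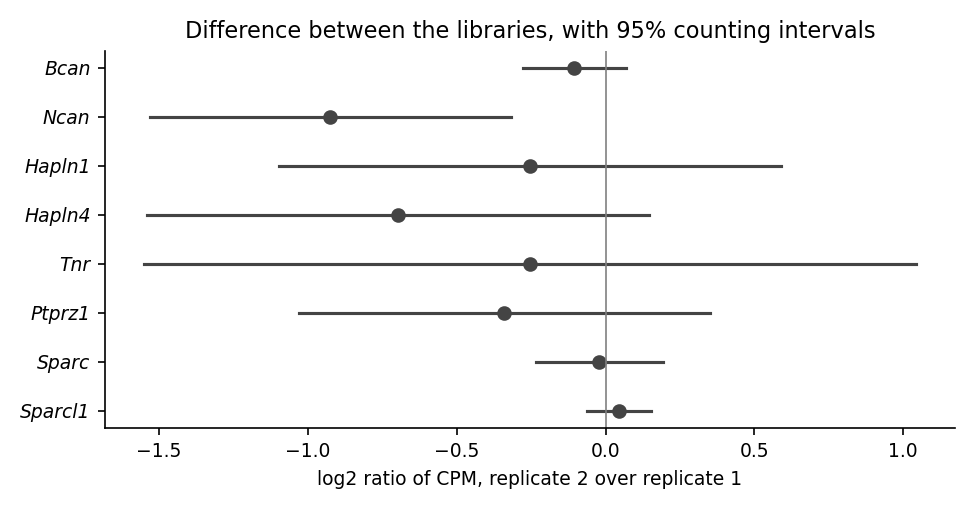
Log2 ratio of replicate 2 over replicate 1 for the 8 tested genes, with 95% intervals from the read counts. The interval of Ncan is the one that does not reach 0, and those of Bcan, Sparc and Sparcl1 are the narrowest.

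The lectican genes share part of their exon layout. In the reference transcripts of Acan, Bcan, Ncan and Vcan, exons 4 to 6 are 175, 128 and 294 bases long, the stretch that encodes the hyaluronan-binding link modules. Acan repeats the same lengths in exons 8 to 10, its additional pair of link modules. Exons of 159, 83 and 145 bases, which encode the lectin domain, follow each other in all 4 genes from exon 10 in Bcan, exon 11 in Ncan and Vcan and exon 13 in Acan. The next exon is 183 bases in Acan, Ncan and Vcan and 191 bases in Bcan. Between these ends lie the exons that differ most in size and carry the sugar chains. The longest internal exon is 588 bases in Bcan, 1209 in Ncan, 3483 in Acan and 5217 in Vcan. The reference transcripts are 3141 bases long in Bcan, 7195 in Ncan, 7355 in Acan and 12427 in Vcan, and the shortest, Bcan, had by far the most reads.

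Bcan reads were mostly complete. Models with the intron chain of Bcan-201, the 14-exon transcript of the secreted protein, held 314 reads in replicate 1 and 383 in replicate 2, or 76.4% and 82.4% of reads in models classed as Known (an annotated chain of introns), NIC (a new combination of annotated splice sites) or NNC (a new splice site). This leaves out incomplete matches and unspliced models. Each internal exon of that transcript was included in over 99% of informative reads. That holds for exon 9 too (108 bases, 36 codons, the epidermal growth factor-like module), which 3 and 4 reads skipped. The split over isoforms gave a chi-square of 12.9 on 5 degrees of freedom (p = 0.0245, adjusted p = 0.758). Over all genes with 50 such reads in each library, 16 of 2531 passed (0.632%), with 152 at an unadjusted p under 0.05. Sparc and Sparcl1, the other members with enough reads, had adjusted p-values of 0.954 and 0.990, so 0 of 3 passed and 1, Bcan, was under 0.05 unadjusted.

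The membrane-anchored form of brevican, which ends after exon 8 in a signal for a lipid anchor, was the smaller share. Reads ending in intron 8 (chr3:87990783-87993054) numbered 30 of 506 in replicate 1, or 5.93% (4.18% to 8.34%). In replicate 2 they numbered 18 of 561, or 3.21% (2.04% to 5.01%). The mean was 4.57% ± 1.92 (SD, n = 2), and the difference was -2.72 points (95% Newcombe interval -5.40 to -0.21). Ends are those of the models, since the ends of single reads are not given. The models of all other Bcan reads ended at the annotated end of Bcan-201 (476 and 543 reads), so model ends matched annotated ends throughout. The models of the reads ending in intron 8 all ended where the annotation ends its 2 transcripts of this shape, 541 bases into the intron. The annotation labels these transcripts as retained introns, without a coding sequence. Only 1 read, in replicate 1, was in a model that matched one of them. The others were mostly classed as incomplete matches, 26 reads in replicate 1 and 17 in replicate 2. Of the anchored reads, 27 of 30 and 14 of 18 began upstream of exon 2, so single molecules link the start of the gene to the anchored end. The last 50 bases before that end hold the polyadenylation hexamers AATAAA and ATTAAA. Of 44985 complete coding transcripts in the annotation, 61.9% hold at least 1 of these on the strand of the gene in the same window.

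The 5′ end of Bcan varied ahead of exon 2, which holds the start codon. Of reads spliced into exon 2, 29 of 429 (6.76%) in replicate 1 and 37 of 474 (7.81%) in replicate 2 used a donor that lengthens exon 1 by 56 bases, which is not annotated. A first exon that ends at 87998698 was used by 11 and 8 reads, or 2.56% and 1.69%. Another that ends at 88002677, upstream of the annotated start of the gene, was used by 9 and 6 reads, or 2.10% and 1.27%. These 3 recurred in both libraries and leave the coding sequence from exon 2 on as it is.

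Retained introns of Bcan differed between the libraries at 2 places, which were singled out after the values were seen. Intron 2 (388 bases) was retained in 19 of 444 reads in replicate 1 and 3 of 492 in replicate 2, and intron 4 (293 bases) in 22 of 463 and 5 of 509. Both were retained by the same molecules. Of reads informative for both, 17 of 444 kept the pair in replicate 1 (3.83%) and 2 of 492 in replicate 2 (0.407%), while 2 and 1 kept intron 2 alone and 2 and 1 kept intron 4 alone. The difference for the pair was -3.42 points (-5.66 to -1.64). Intron 12 (230 bases) was retained by 23 reads in each library, of 473 and 542, a difference of -0.62 points (-3.34 to 1.98). No p-value was computed for these events.

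Ncan differed from Bcan in how few of its reads were complete. Ncan-201, with 15 exons, was matched by 12 and 10 reads. A further 23 reads in replicate 1 and 16 in replicate 2 lay in unspliced models, 41.1% and 45.7% of the gene's reads. Of these, the 23 reads of replicate 1 are deposited as a model listed with a length of 1 base at the 3′ end of the gene. Introns 1 to 6 were spliced in 23.2% and 31.4% of the reads, and intron 13, near the 3′ end, in 58.9% and 54.3%.

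The opposite strand of Ncan held more reads than the gene did, 147 in replicate 1 and 253 in replicate 2. Most lay in 1 unspliced model per library within exon 15, the last exon. The model spans chr8:70093742-70094815 with 134 reads in replicate 1 and chr8:70094212-70094814 with 242 reads in replicate 2. Just beyond the 3′ ends of both models, the strand of Ncan holds 26 T bases in a row, which is a run of A on the strand of these reads. Models of Ncan on the sense strand also ended at 70094815 in replicate 1 (10 reads) and at 70094814 in replicate 2 (12 reads). No AATAAA or ATTAAA was found in the 50 bases before these ends. A few spliced antisense reads, 2 in replicate 1 and 1 in replicate 2, had 2 introns each, all identical in position to introns of Ncan. In each library 1 Ncan read was spliced from inside exon 15 over the annotated end of the gene, by the same unannotated intron (chr8:70089061-70096202). Both reads ended inside the span of Hapln4, at 70087718 in replicate 1 and at 70088894 in replicate 2. Whether the opposite reads come from a transcript of their own was not tested.

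Neither large proteoglycan gave more than a glimpse of its structure. The Vcan read, a model of 4967 bases in replicate 1, began inside exon 7 (2122 of its 2880 bases), joined it to exon 9 and ran to the last exon, leaving out exon 8 (5217 bases). Exons 7 and 8 encode the 2 sugar-bearing regions of versican, and the form with the first and without the second is known as V2, a main form in brain. Since the read begins inside exon 7, its upstream exons were not seen. The Acan read, of 5294 bases in replicate 2, began with exon 8 and ran through the 3483 bases of exon 12.

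Hapln1 models had a start of their own. Of 22 reads in each library, 0 held the first intron of the reference transcript, whose first exon lies at chr13:89539796-89540912. Counted over all 22 reads, this allows a share of up to 13.6%. Only 20 reads in replicate 1 and 21 in replicate 2 reached exon 2 and could show that intron. Instead 20 reads in each library were deposited as models that begin at 89584511. This is 187 bases upstream of exon 2 and the start of a short annotated transcript without a coding sequence. The start codon lies in exon 2, so these models hold all coding exons. Whether each of their reads does is not known. A model is deposited with a single start and end for all its reads, and the starts of single reads are not given. The leading models ended at different positions, 89609654 in replicate 1 (18 reads) and 89609186 in replicate 2 (20 reads). Both ends have AATAAA in the last 50 bases, and they lie 1998 and 2466 bases short of the annotated end. One spliced read in replicate 2 had a first exon that begins upstream of the annotated gene, at 89538854.

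Hapln4 had 14 and 8 reads with the complete chain of its reference transcript. By its models, it kept its first introns in a larger share of reads than Bcan. Intron 1 (856 bases) was retained in 7 of 22 reads in replicate 1 and 4 of 13 in replicate 2, and intron 2 (241 bases) in 6 of 23 and 2 of 13. As shares these are 31.8% and 30.8% for intron 1 and 26.1% and 15.4% for intron 2, and the difference between libraries was -10.7 points for intron 2 (-33.9 to 19.4). The intervals of intron 1, 16.4% to 52.7% and 12.7% to 57.6%, lie above that of any Bcan intron, of which the highest was 4.86% (3.26% to 7.19%). Those of intron 2 do so in replicate 1 alone. All reads counted as retaining intron 1 lay in models deposited with a start at 70083497, in exon 1. Since starts of single reads are not given, a read that begins inside the intron would be counted too.

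Tnr, at 12202 bases the longest reference transcript after Vcan, had few reads of any use for splicing. Tnr-201, a 22-exon form of 4424 bases, was matched by 1 read in replicate 1 and 2 in replicate 2. In each library 5 of the 9 reads were unspliced. The last exon alone is 7636 bases long.

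Ptprz1 reads fell into the 3 endings shown above. Those that settle the fate of exon 12 numbered 21 in replicate 1 and 29 in replicate 2. The short donor was used by 9 in each library, 42.9% (24.5% to 63.5%) and 31.0% (17.3% to 49.2%). The long donor was used by 4 and 8, or 19.0% and 27.6% (14.7% to 45.7%). Reads that continued past exon 12 and ended in the following intron, as the secreted form does, numbered 8 and 12, or 38.1% (20.8% to 59.1%) and 41.4% (25.5% to 59.3%). All 8 in replicate 1 and 5 of the 12 in replicate 2 were spliced upstream. The 3 forms were not ordered by these counts, since their intervals overlap in each library, and none differed between libraries beyond its interval. No read skipped exon 12: beside 0 skipping reads, 9 and 6 held both of its junctions, which sets the lower limit of inclusion at 70.1% and 61.0% (95% Wilson). The division by donor was added after the data were seen, since the planned measure counts either donor as inclusion.

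The annotated secreted transcript of Ptprz1 was the one isoform to hold 10% or more in both libraries, with 6 of 18 and 5 of 15 reads in Known, NIC and NNC models (33.3% each). Some of those models begin inside exon 12, so not all of these reads are full chains. Its end at 23004678, 48238 bases upstream of the annotated end of the receptor forms, has AATAAA in the last 50 bases, as does the receptor end.

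Downstream, in the part of Ptprz1 that encodes the inside of the cell, no read held exon 16. This microexon of 21 bases (chr6:23024714-23024734) is in both annotated transcripts that run from the first exon to the receptor end:
Ptprz1 exon 16: acactgaaagagttttaccag
It was in 0 of 14 and 0 of 18 reads that step from exon 15 onward, which allows shares of up to 21.4% and 16.7%. All of these reads joined exon 15 to exon 17 directly, a join that is not annotated. They used either of 2 acceptors: the annotated start of exon 17 in 8 and 7 reads, and 1 that lies 24 bases farther upstream in 6 and 11 reads. The lengths of exon 16 and of the added stretch are multiples of 3. The share of the upstream acceptor was 42.9% (21.4% to 67.4%) and 61.1%, a difference of 18.3 points (-15.0 to 46.7).

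**Figure D3:**
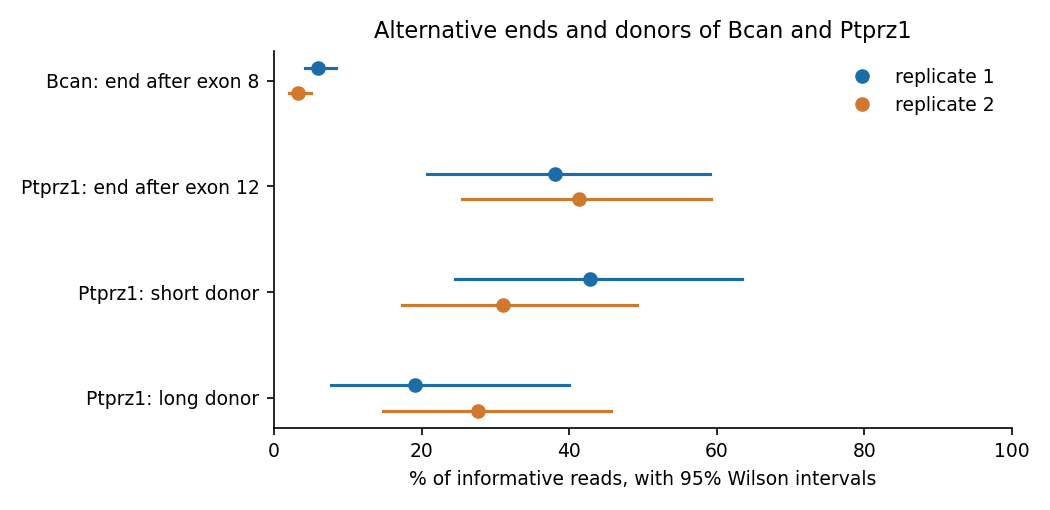
Share of reads with the anchored end of Bcan, among all Bcan reads, and with each of 3 fates of Ptprz1 exon 12. Shares are given for each library with 95% Wilson intervals. The Bcan end lies under 10% in both libraries, and the 3 Ptprz1 forms overlap in their intervals.

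Sparcl1 was the most uniform. Its reference transcript, with 11 exons and 2759 bases, held 1101 reads in replicate 1 and 1367 in replicate 2, or 95.8% and 95.5% of reads in Known, NIC and NNC models. Small variants recurred at nearly the same share. An additional annotated exon of 178 bases between exons 1 and 2, ahead of the start codon, was spliced to exon 2 in 17 of 1142 reads (1.49%) and 26 of 1430 reads (1.82%). An unannotated acceptor that adds 15 bases to exon 3 was used in 13 of 1149 (1.13%) and 16 of 1437 (1.11%). These shares differed between libraries by 0.33 points (-0.72 to 1.33) and -0.02 points (-0.92 to 0.81).

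Sparc used both acceptors of exon 3. Of reads with the donor of exon 2, 26 of 149 in replicate 1 and 42 of 189 in replicate 2 left out the 3 bases shown above, or 17.4% and 22.2%, a difference of 4.77 points (-3.95 to 13.1). By whole models, Sparc-201 held 117 and 140 reads and Sparc-202 held 26 and 40. Sparc-205 held 57 and 60 reads and is annotated as a retained intron that begins 94 bases upstream of exon 6. Its 4 introns are introns 6 to 9 of Sparc-201, so the intron chain does not separate it from Sparc-201 reads that begin near exon 6.

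The 2 SPARC genes differed in how far their reads reached toward the 5′ end, although Sparc has the shorter transcript (2300 bases). Intron 1 was spliced in 45.1% and 47.8% of Sparc reads, and intron 9, the last, in 95.4% and 91.9%. In Sparcl1 the first intron was spliced in 88.5% and 89.6% of reads and the last in 99.1% and 98.8%.

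**Figure D4:**
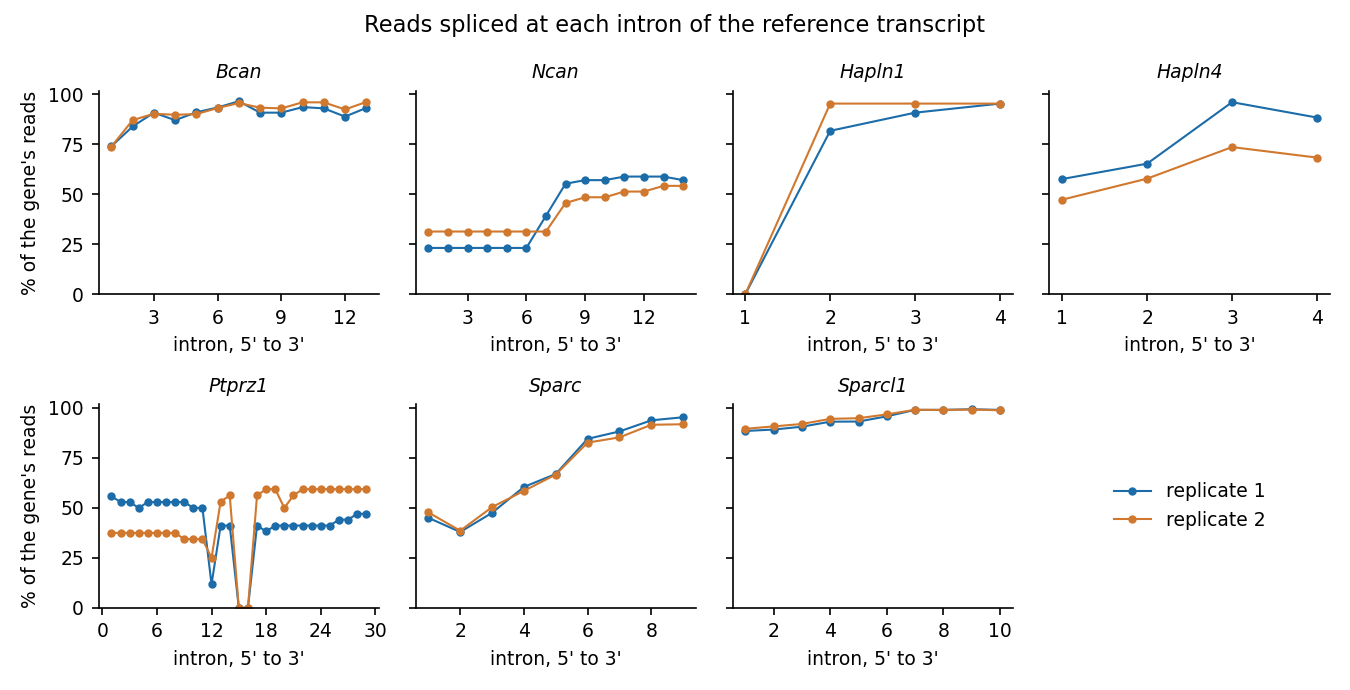
Percent of each gene's reads that are spliced at each intron of its reference transcript, numbered 5′ to 3′, in each library. Sparc falls from over 90% at its last intron to under 50% at its first, Sparcl1 stays above 88%, Hapln1 has no read at intron 1, and Ptprz1 has none at introns 15 and 16, which flank the microexon.

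Reads were called full chains when their model, annotated or with a different chain of introns, began in the first exon and ended in the last exon of a complete coding transcript. Sparcl1 had the highest share, 90.3% in replicate 1 (88.6% to 91.8%) and 91.6% in replicate 2 (90.1% to 92.8%). Bcan followed with 75.1% and 79.0%, Hapln4 with 61.5% and 52.6%, and Sparc with 45.4% and 48.3%. Ptprz1 had 44.1% and 34.4%, with the secreted form counted as complete. Ncan had 23.2% and 28.6%, Tnr 2 of 9 reads in each library, and Hapln1 none, since none of its models begins in the annotated first exon. Over the 8 genes the median was 44.7% and 41.3%. Length did not order them throughout, since Sparc, the shortest, stood below Bcan and Sparcl1 in both libraries without overlap of the intervals. The points are genes of the same libraries, and no test was made.

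**Figure D5:**
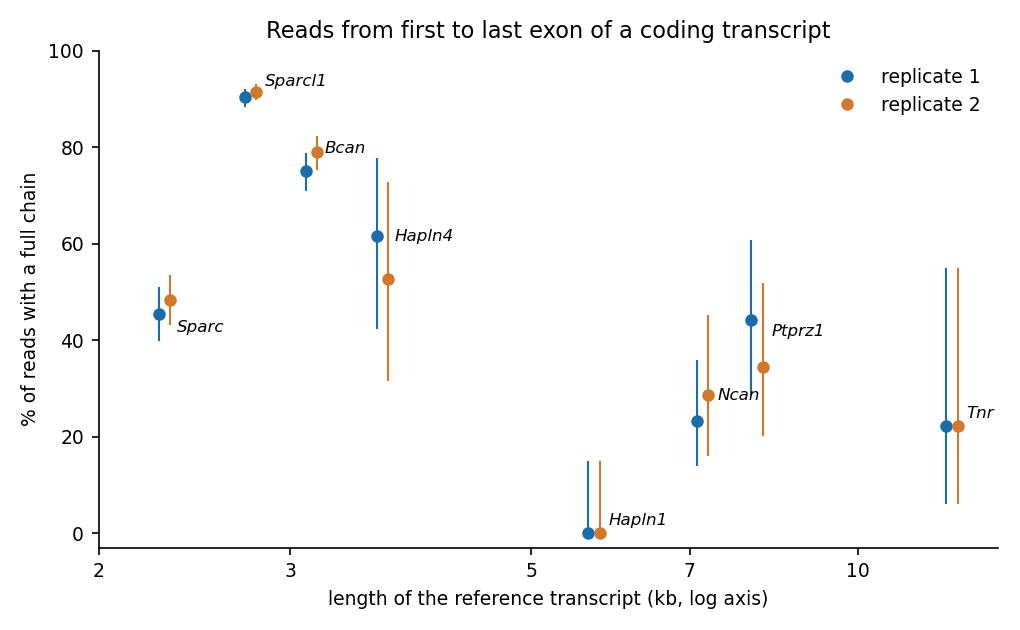
Percent of reads with a full chain against the length of the reference transcript on a log axis, for the 8 tested genes, with 95% Wilson intervals. Sparcl1 and Bcan stand highest, Sparc lies below them although it is shorter, and Hapln1 lies at 0.

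Around these genes, 109 further matrix genes in 8 lists were looked up by symbol, of which 1, Tmem2, is not a symbol of the annotation and was not read. Of the 109, 78 had 3 or more reads in each library and count as detected, 73 could be tested and 2 passed Fisher's exact test, beside 2.11% of all genes. Their median log2 ratio was -0.04, against -0.01 over all tested genes. Col3a1, a fibrillar collagen of the meninges, was higher in replicate 2 (57 and 139 reads, 73.5 and 150 CPM, log2 ratio 1.02, 0.58 to 1.47, adjusted p = 0.0004505). Lgi1, a secreted protein of synapses, was lower (80 and 51 reads, 103 and 55.2 CPM, log2 ratio -0.90, -1.40 to -0.39, adjusted p = 0.0271). With Known models only, 3 passed, Col3a1, Cntn1 and Nptxr, and Lgi1 was not among them. Over all genes, 166 of 8526 passed with that setting. Col3a1 is also on the list of meningeal fibroblast markers, which summed to 154 and 265 CPM, and the part of those cells in its difference was not tested.

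Other carriers and makers of sugar chains were present. Among proteoglycans, Cspg5 (neuroglycan C) stood at 225 and 254 CPM, between Sparc and Ncan, whereas Cspg4 (NG2, of oligodendrocyte precursors) had 10 and 18 reads. Of 20 genes of chondroitin sulfate synthesis, 13 were detected, 14 tested and 0 called. The highest were Chpf, a chain-polymerising factor, at 164 ± 11.3 CPM, B3gat3, which adds the last sugar of the linker, at 159 ± 21.9 CPM, and B4galt7, which adds its first galactose (65.8 and 62.8 CPM). Of 12 listed genes of tenascins and of hyaluronan synthesis, breakdown and binding, 11 were named in the annotation and 2 were detected. The highest were the hyaluronidase Hyal2 with 12 and 10 reads, Tnc with 8 and 5, and Cemip with 1 and 6. The synthases Has1, Has2 and Has3 had at most 2 reads in either library, under the limit that a count of 0 allows.

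Among 18 matrix proteases and inhibitors, 14 were detected, 13 tested and 0 called. The inhibitor Timp2 was highest at 268 ± 7.45 CPM, followed by the membrane-bound protease Mmp17 at 247 ± 31.8 CPM and the plasminogen activator Plat (80.0 and 54.1 CPM). All 8 listed partners of Ptprz1 were detected and 0 of 8 passed, but with Known models only the adhesion molecule Cntn1 did (113 and 76 Known reads, log2 ratio -0.79, adjusted p = 0.0182 by Fisher's exact test). Ptn (pleiotrophin), a secreted ligand of Ptprz1, stood at 742 ± 75.1 CPM with 534 and 735 reads, above the receptor's 34 and 32. The adhesion molecule Ncam1 stood at 206 and 170 CPM. In the SPARC family, 6 of 7 were detected, 5 tested and 0 called, led by Spock2 at 206 ± 3.96 CPM, Fstl1 (128 and 109 CPM) and Spock1 (83.9 and 76.8 CPM).

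Of 20 basement membrane and interstitial matrix genes, 17 were detected, and besides Col3a1 the highest were the type IV collagens Col4a2 (98.1 and 141 CPM) and Col4a1 (80.0 and 68.2 CPM). Of 20 other neuronal and astrocytic matrix proteins, 15 were detected. The pentraxin receptor Nptxr led with 304 ± 57.9 CPM (log2 ratio 0.39, adjusted p = 0.0867 by Fisher's exact test, and 0.0303 with Known models only), followed by the syndecan Sdc3 at 196 ± 10.6 CPM and Crtac1 (178 and 132 CPM).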

How the data were processed

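Per the labels, 2 µg of total RNA went into each of 2 long-read libraries, with ERCC (Ambion mix 1) and Lexogen SIRV spike-ins added. The authors' deposited tables hold, per library, read counts of transcript models as whole numbers, not normalized, with a separate list of each model's exons. Per the deposited text beside the tables, model building was done library by library on mm10 and GENCODE M21, and per the file headers TALON named the unannotated ones. No aligner or version is given in the sources used here. Models carry 1 start and 1 end, and Known models carry those of the annotation.

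The reads of all models assigned to a gene were summed, and CPM values are scaled to all mouse reads. A model outside the annotation was taken as shared where its introns were identical in both libraries. The gene test was a two-sided Fisher's exact test on genes with 10 or more reads in all, and the isoform test a chi-square test on genes with at least 50 reads in Known, NIC and NNC models (annotated chains, or chains with new combinations of known or with new splice sites) in each library (isoforms of fewer than 10 reads merged). Both were adjusted over all genes tested at 0.05. Log2 ratios have 0.5 reads added. Intervals are 95% Wilson or Newcombe intervals and cover counting error only. Reference transcripts were the longest of the annotation's principal coding transcripts, except Vcan-203, the longest coding one. Named were all 10 genes, isoforms with at least 10% of Known, NIC and NNC reads in both libraries, and of each matrix list the 3 genes of highest mean CPM and those called. A gene that this rule names is not reported here. The genes and lists were chosen with earlier results of these data known. Events were named from junctions outside the reference transcript with at least 5 reads, and retained introns after their values were seen. Both tests were tested on simulated data. Python 3.11.15, NumPy 2.4.6, SciPy 1.17.1, R 4.3.3, edgeR 4.0.16 and DESeq2 1.42.0 were used, the last 2 for alternative library sizes. Protein sequences and the genome sequence were not used here.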

Additional observations from a re-analysis of the deposited data

How the results depend on the processing

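With 1 group of 2 libraries no comparison of conditions and no spread between animals can be had. Depth limits precision: under 60 reads, the splicing shares of Ncan, Hapln1, Hapln4, Tnr and Ptprz1 have wide intervals. All 52 alternative log2 ratios of the matrix genes, and all 8 alternative isoform tests, stayed on the same side of the threshold. The sign changed in 3, all near 0: Bcan was at 0.0588 with Known models only, and Sparc at 0.00579 with Known models only and at 0.0111 with DESeq2 size factors. The count of genes with a different isoform split was 3 with Known models only and 148 with incomplete matches included, against 16, and the cause was not tested. The anchored share of Bcan was 0.0988% when only the annotated transcript counted, because 1 read matched it, and it was 5.93% without replicate 2 and 3.21% without replicate 1. The median full-chain share was 34.2% with Known models only and 52.1% with spliced reads as the denominator, against 43.0%, since these alternatives count fewer reads above or below the line. Single libraries gave 41.3% and 44.7%. Of Ptprz1 reads joined to exon 13, which leaves out those ending in the following intron, a mean of 38.9% used the long donor of exon 12. Single libraries gave 30.8% (4 of 13 reads) and 47.1% (8 of 17). The mean was 22.2% when both junctions of exon 12 had to be read, with 1 of 9 and 2 of 6 reads. That alternative was chosen after seeing the data. For single genes, 10 of 16 alternative full-chain shares moved by more than the SD of the libraries. No paired analysis was possible because there is 1 group.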
